A study of Mus musculus with 7 samples.

Results

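Mast cells and basophils carry granules filled with proteases, histamine and heparin, and they release these when an antigen cross-links the IgE bound to their high-affinity receptor. Both cell types arise from hematopoietic progenitors, and mast cells depend on the receptor Kit and its ligand, stem cell factor. The open chromatin at 9 genes that mark them was described here in HPC7, a mouse hematopoietic progenitor cell line that is kept in culture with stem cell factor. The genes were the granule proteases Cpa3, Mcpt8, Mcpt4, Cma1 and Tpsb2, the IgE receptor subunits Ms4a2 and Fcer1a, the histamine-forming enzyme Hdc and the transcription factor Mitf. They are 9 of the 21938 protein-coding genes of GENCODE M21 and were listed by name, by a rule that uses no measured value.

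Bulk ATAC-seq, in which the Tn5 transposase cuts accessible DNA, had been made on 7 libraries of HPC7 cells, each from its own culture batch. All 7 form 1 group with the same line, medium and treatment in the labels, and no other cell type or condition was analysed here. The libraries held between 84593 and 132852 peaks. A peak is called an open-chromatin region (OCR) here, and its intensity is the fold enrichment, the ratio of the reads at its summit to the background of the library, with 1 added to each. The background lay between 4.44 and 20.4 reads. Peak names carry the prefix VD in the first 3 of these libraries and EtOH in the last 4, and the labels give no meaning for either prefix. Whether the prefixes stand for different treatments is not known. If they do, the spreads and p-values over 7 libraries mix these treatments. Where 7 values are given in library order, they run HPC7-1, HPC7-2, HPC7-4, HPC7-5, HPC7-6, HPC7-7 and HPC7-8. The p-values below measure the spread between these 7 libraries, and the peak lists do not measure how much RNA a gene makes.

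OCRs were collected from each gene body and 30 kb on either side, and peaks of different libraries that shared at least 1 bp were merged. A promoter OCR of a gene lay within 3 kb of a start of any of its transcripts, an OCR within 3 kb of another gene's start was set apart, and the rest were distal. The 9 windows held 81 merged OCRs of 144931 in all, 15 at promoters of the 9 genes, 23 at promoters of other genes and 43 distal. Of these 81, 41 had a peak in all 7 libraries, or 50.6%, beside 46.2% of all merged OCRs. Another 11 were found in 1 library, 6 of them in HPC7-1, the library with the highest background and the longest list, and 3 in HPC7-8. A single library held between 44 OCRs of the windows, in HPC7-6, and 74, in HPC7-1.

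The genes fell into 3 kinds of locus. Cpa3, Ms4a2, Hdc and Mitf had an OCR over a protein-coding start in all 7 libraries, 4 of 9 genes beside 52% of all protein-coding genes. At these 4 genes the merged OCR over the start had a peak in each library. The peak of a single library need not itself reach the start. Cma1 and Tpsb2 had a promoter OCR in all 7 libraries that lay upstream and did not reach the start. With these, 6 of 9 genes had a promoter OCR in every library, beside 60.9% of all protein-coding genes, so that the share was near that of genes at large. The count was 4 of 9 with promoters of 1 kb, and also 4 of 9 where a library counted only if its peaks covered 50% of the merged OCR. The share of all genes was not taken at either setting, so neither count can be placed against genes at large. Fcer1a, Mcpt8 and Mcpt4 had no promoter OCR in any library, and Mcpt4 had no OCR in its window at all, 1 of 9 beside 12.3% of all genes. A distal OCR in all 7 libraries was found for 7 of 9 genes, all but Mcpt8 and Mcpt4, beside 68.9% of all genes. It was 8 of 9 with promoters of 1 kb and with protein-coding starts alone, where the OCR of Mcpt8 becomes distal. With flanks of 10 kb it was 5 of 9. Shares of all genes are not given at these settings.

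**Figure D1:**
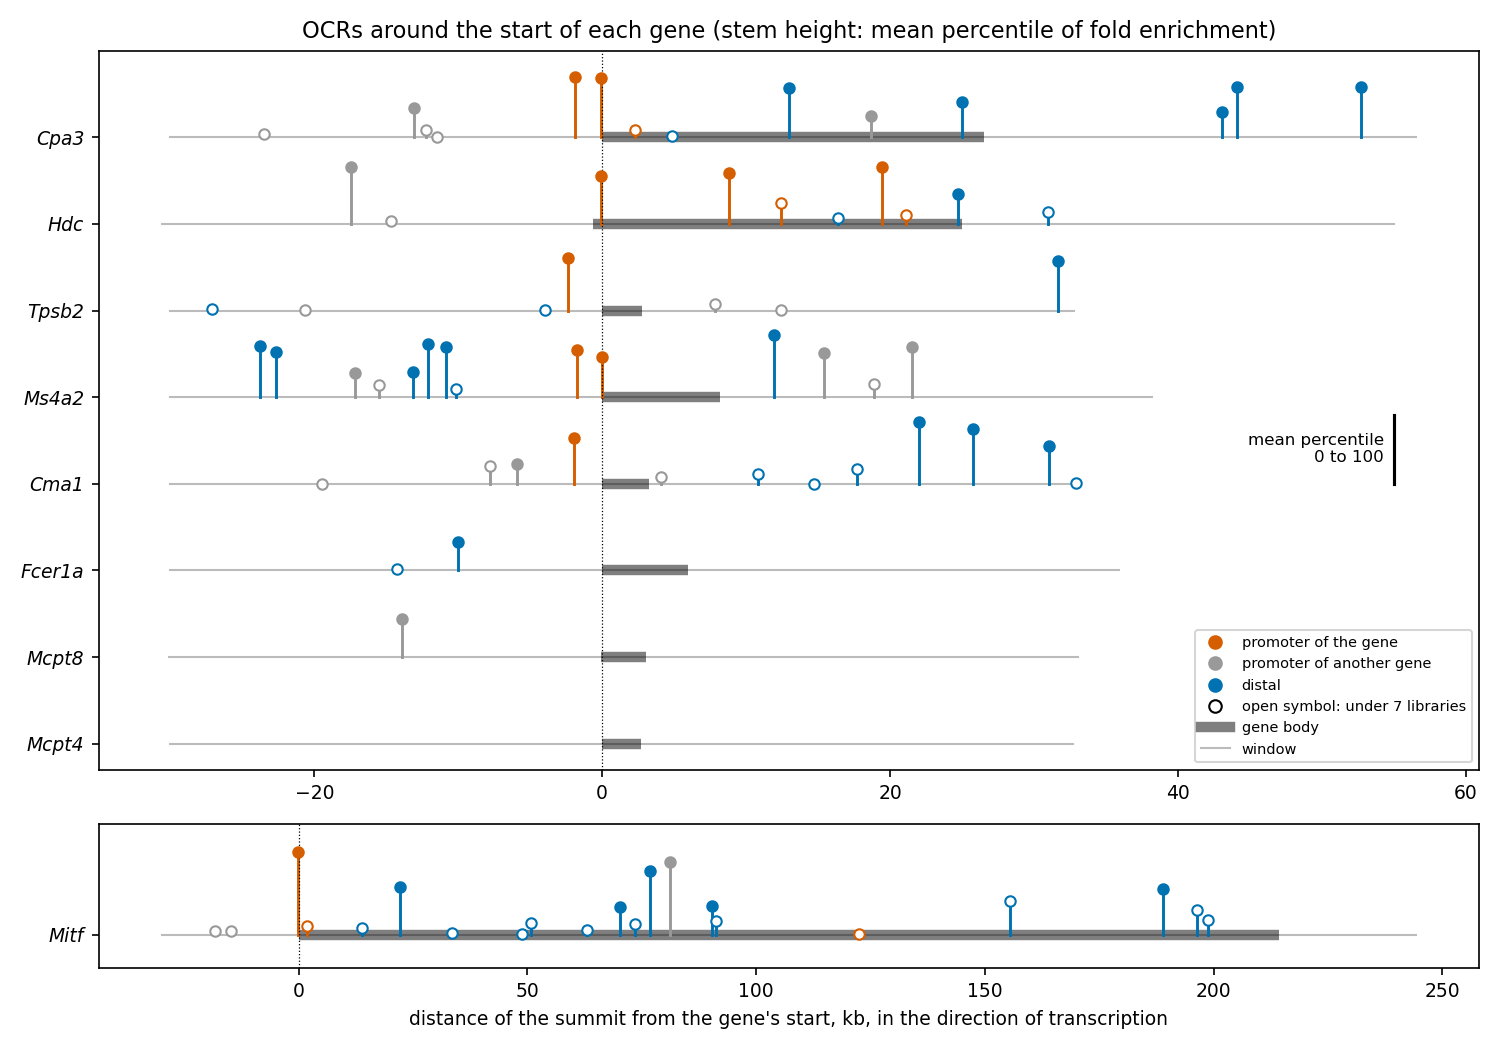
Each row is 1 gene, with the distance of every OCR summit from the start of the gene in kb on the x axis, positive in the direction of transcription, and Mitf on its own scale. Stem height is the mean percentile of fold enrichment over the 7 libraries, filled symbols are OCRs found in all 7, and colour gives the class. Cpa3, Hdc, Ms4a2 and Mitf have a filled promoter symbol at 0 kb, and the rows of Fcer1a, Mcpt8 and Mcpt4 have none.

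The sequences at these regions are from the mouse genome GRCm38.p6, which has the coordinates of mm10, and are written 5′ to 3′ on the strand of the gene, which is the plus strand for Mitf and the minus strand for Cpa3, Ms4a2, Hdc, Cma1 and Fcer1a. Capitals mark letters that match a short motif on either strand: for GATA factors the letters AGATAA or the letters TGATAA, for MITF family proteins the M-box with CATGTG and the E-box with CACGTG, for RUNX factors TGTGGT, for ETS factors AGGAAGT, for CEBP factors TTGCNNAA, and for AP-1 TGANTCA. Matches of different motifs may overlap. A match describes the letters and is not a site of binding, and a missing match says only that these letters are not in the window. First shown are the 200 bases upstream of the 4 starts that lay in a merged OCR with a peak in every library, since these are called the open starts of the set.
Cpa3 (chr3:20242182-20242381): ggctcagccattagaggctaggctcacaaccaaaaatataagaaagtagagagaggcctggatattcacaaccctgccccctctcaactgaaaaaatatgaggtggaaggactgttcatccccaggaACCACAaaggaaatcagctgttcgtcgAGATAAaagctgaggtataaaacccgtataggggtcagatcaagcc
Ms4a2 (chr19:11623720-11623919): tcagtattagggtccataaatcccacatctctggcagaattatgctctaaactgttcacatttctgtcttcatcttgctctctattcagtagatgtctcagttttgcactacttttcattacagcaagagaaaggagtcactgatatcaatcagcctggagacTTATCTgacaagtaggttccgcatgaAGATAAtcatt
Hdc (chr2:126618679-126618878): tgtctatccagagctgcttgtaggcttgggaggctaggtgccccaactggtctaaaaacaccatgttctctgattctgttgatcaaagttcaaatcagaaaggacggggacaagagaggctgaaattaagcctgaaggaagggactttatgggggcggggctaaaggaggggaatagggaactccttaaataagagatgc
Mitf (chr6:97806852-97807051): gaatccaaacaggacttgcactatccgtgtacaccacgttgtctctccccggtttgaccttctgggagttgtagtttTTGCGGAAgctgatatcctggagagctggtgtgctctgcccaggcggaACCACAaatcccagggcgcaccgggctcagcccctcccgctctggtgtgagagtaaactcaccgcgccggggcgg
The Cpa3 start has a GATA match and a RUNX match, and the Ms4a2 start has 2 GATA matches. None of the searched letters lie in the 200 bases before the Hdc start, and the Mitf start has a RUNX and a CEBP match.

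The next sequences are the 201 bases around the summits of OCRs away from the starts: 2 at Cpa3 and the most intense distal OCR of Cma1, Ms4a2 and Fcer1a. The first is the Cpa3 OCR with the most GATA matches, which was chosen after the matches were counted and includes 15 bases of an exon. The second is the most intense distal OCR of that gene.
Cpa3 intron (chr3:20229102-20229302): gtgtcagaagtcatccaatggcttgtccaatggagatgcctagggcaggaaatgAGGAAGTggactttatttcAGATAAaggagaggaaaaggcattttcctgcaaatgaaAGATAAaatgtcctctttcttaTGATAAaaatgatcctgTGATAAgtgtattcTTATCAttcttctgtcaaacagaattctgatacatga
Cpa3 downstream (chr3:20198000-20198200): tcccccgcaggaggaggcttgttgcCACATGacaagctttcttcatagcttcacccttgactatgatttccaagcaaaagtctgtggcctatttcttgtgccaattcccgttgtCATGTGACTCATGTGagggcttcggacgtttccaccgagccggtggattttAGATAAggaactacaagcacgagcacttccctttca
Cma1 downstream (chr14:55922547-55922747): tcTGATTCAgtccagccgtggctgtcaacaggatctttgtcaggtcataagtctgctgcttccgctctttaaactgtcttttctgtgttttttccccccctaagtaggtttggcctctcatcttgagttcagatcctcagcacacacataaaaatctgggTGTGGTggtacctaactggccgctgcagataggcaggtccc
Ms4a2 downstream (chr19:11611671-11611871): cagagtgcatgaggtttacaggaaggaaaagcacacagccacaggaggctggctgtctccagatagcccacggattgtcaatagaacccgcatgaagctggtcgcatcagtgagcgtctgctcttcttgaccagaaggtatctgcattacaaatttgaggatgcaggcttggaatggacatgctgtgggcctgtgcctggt
Fcer1a upstream (chr1:173237134-173237334): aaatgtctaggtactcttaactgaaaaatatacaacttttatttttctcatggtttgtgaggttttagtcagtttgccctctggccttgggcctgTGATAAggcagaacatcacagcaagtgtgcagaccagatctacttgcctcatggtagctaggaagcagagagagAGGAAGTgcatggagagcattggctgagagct
The Cpa3 intron OCR holds 5 GATA matches and an ETS match in 201 bases, and 5 or more GATA matches were found in 6 of the 66979 OCRs present in all libraries, this one included. The Cpa3 downstream OCR holds a GATA match and 3 M-box matches, of which a pair overlaps an AP-1 match between them. The Cma1 OCR has a RUNX and an AP-1 match, the Fcer1a OCR has a GATA and an ETS match, and the Ms4a2 OCR has no match.

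Among the proteases, Cpa3 (ENSMUSG00000001865, chr3:20215620-20242181, minus strand), which encodes mast cell carboxypeptidase A3, had the most intense promoter. A pair of promoter OCRs was found in all 7 libraries. One lay over the start, at chr3:20241597-20242659, with its summit 62 bp upstream. Its fold enrichment was 35.6, 35.5, 46.1, 27.7, 23.3, 39.3 and 37.4 in library order. The other lay at chr3:20243648-20244681, with its summit 1877 bp upstream in intergenic sequence, and had fold enrichments of 46.8, 41.3, 56.2, 38.5, 32.2, 41.2 and 43.0 in library order. HPC7-6 was lowest and HPC7-4 highest at both, and the upstream OCR was the more intense of the pair in each library. The upstream OCR holds 2 GATA matches around its summit.

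To compare libraries whose lists differ in length, each fold enrichment was also ranked among all peaks of its library, as a percentile, with 0 where there was no peak. The most intense promoter OCR of Cpa3 reached a percentile of 87.4 ± 2.13 (SD, n = 7), with a lowest value of 84.1 in HPC7-5 and a highest of 89.8 in HPC7-4. Downstream of and inside the gene, 5 distal OCRs were found in all 7 libraries. One was the intron OCR at chr3:20229002-20229491, 12979 bp downstream of the start, at a percentile of 71.8 ± 5.69. A second intron OCR lay 25030 bp downstream at 51.4 ± 11.3. The other 3 lay past the end of the gene, 43038, 44081 and 52732 bp downstream of the start, at mean percentiles of 36.0, 72.6 and 72.1. OCRs near the starts of the microRNA gene Mir7007, within a Cpa3 intron, and of the neighbouring gene Cpb1 were at 30.6 and 43.0. Taking the most intense distal OCR in each library gave 73.7 ± 5.98. The promoter was above the distal value in every library, by 13.7 ± 4.09 percentile points (exact sign-flip permutation test over libraries, two-sided, p = 0.0156, the smallest that 7 libraries can give, and adjusted p = 0.0183 over all 18766 genes with either kind of OCR). This order turned with the promoter set at 1 kb, where the difference was -2.23, and with flanks of 100 kb, where it was -1.003 (exact permutation p = 0.344).

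Cma1 (ENSMUSG00000022225, chr14:55941451-55944675, minus strand), a chymase of connective tissue mast cells, showed the opposite order. Its most intense OCR was distal, at chr14:55922156-55923298, in intergenic sequence 22028 bp downstream of the start. The fold enrichment there was 67.9, 53.3, 57.9, 52.9, 37.7, 47.6 and 53.5 in library order, a mean of 53.0 ± 9.22. Its percentile was 89.5 ± 1.73, and every library placed it among its most intense 25% of peaks. A pair of further intergenic OCRs in all 7 libraries lay 25788 and 31046 bp downstream of the start, at 79.3 ± 3.67 and 54.8 ± 11.8.

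The promoter OCR of Cma1, at chr14:55946108-55947187, ended 1433 bp upstream of the start and did not cover it. Its fold enrichments were 14.1, 8.27, 12.5, 11.1, 8.76, 9.03 and 13.1 in library order, and its percentile was 65.6 ± 6.87. The highest of these, in HPC7-1, was below the lowest of the distal OCR, so the values of the pair of OCRs did not overlap. The promoter percentile was the lower one throughout the 7 libraries (mean difference -23.9 ± 5.69 points, exact sign-flip permutation test p = 0.0156, adjusted p = 0.0183 over all genes). One further OCR in all libraries, near a start of the neighbour Cma2, was at 28.5 ± 16.1. With flanks of 10 kb the 3 shared distal OCRs fall outside, and the difference becomes 52.0 points in favour of the promoter. With promoters of 1 kb Cma1 has no promoter OCR.

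Mcpt8 (ENSMUSG00000022157, chr14:56082166-56085273, minus strand), the protease that marks mouse basophils, and Mcpt4 (ENSMUSG00000061068, chr14:56059629-56062313, minus strand), another chymase of connective tissue mast cells, lie in the same protease cluster as Cma1. Their starts are 22884 bp apart, so their windows share 40148 bp and are not independent. The only OCR in either window was at chr14:56098946-56099345 in the window of Mcpt8, 13926 bp upstream of its start and 2652 bp from a start of the neutrophil protease gene Ctsg. This OCR was counted to the promoter of Ctsg through the annotated start Ctsg-202, and it lay outside the gene body of Ctsg. With protein-coding starts alone it becomes distal, so it does not show an open protein-coding start of Ctsg. It was found in all 7 libraries, with fold enrichments between 5.32 in HPC7-6 and 11.7 in HPC7-8 and a percentile of 54.5 ± 10.7. Around Mcpt4 and Mcpt8 no library listed a peak over 84670 bp, chr14:56014276-56098945, which also holds Mcpt1, Mcpt2 and Mcpt9. This stretch has 0 undetermined bases in the reference. Of all protein-coding genes, 14.2% had a start farther from any OCR than Mcpt4, whose distance was 36633 bp, and 23.1% farther than Mcpt8. The 1 kb on either side of each start was also aligned to the whole genome to look for near-identical copies. Alignments elsewhere of at least 100 bp at 95% identity or more covered 0% of these bases at Mcpt8, Mcpt4, Cma1, Ms4a2, Fcer1a and Hdc, and between 5.05% and 5.30% at Cpa3, Tpsb2 and Mitf.

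Tpsb2 (ENSMUSG00000033825, chr17:25366305-25369098, plus strand), a mast cell tryptase, had 1 promoter OCR and 1 distal OCR in all 7 libraries. The promoter OCR, chr17:25363208-25364221, ended 2084 bp upstream of the start. Its fold enrichment was 16.7, 13.6, 16.2, 20.01, 11.3, 15.9 and 26.7 in library order. The distal OCR, chr17:25397750-25398479, lay 31689 bp downstream in an intron of the calcium channel gene Cacna1h, with fold enrichments of 13.9, 12.7, 12.1, 16.9, 11.1, 13.0 and 19.7. HPC7-6 was lowest and HPC7-8 highest at both. The percentiles were 75.2 ± 4.80 and 71.97 ± 3.87 and their ranges overlapped, but the promoter OCR was the higher in each library, by 3.24 ± 1.88 points (exact sign-flip permutation test on 7 libraries, p = 0.0156, adjusted p = 0.0183 over all genes). With promoters of 1 kb Tpsb2 had no promoter OCR, and the difference was 73.96 with flanks of 10 kb and -6.43 with 100 kb. At 10 kb the distal OCR in all libraries falls outside. The distal OCR that is left was found in 1 library, at a mean percentile of 1.25. The other 5 OCRs of the window were found in 4 libraries or fewer. One of them lay near the start of the adjacent tryptase gene Tpsab1, in 4 libraries, at a percentile of 1.29 ± 1.59.

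The IgE receptor genes differed in how many OCRs they had. Ms4a2 (ENSMUSG00000024680, chr19:11615523-11623719, minus strand), which encodes the beta subunit, had 14 OCRs, 11 of them in all 7 libraries. That is 20.5 OCRs per 100 kb of window, beside a median of 10.4 over all protein-coding genes. Fcer1a (ENSMUSG00000005339, chr1:173221284-173227214, minus strand), which encodes the IgE-binding alpha subunit, had 2 OCRs, 1 of them in all 7 libraries, or 3.03 per 100 kb.

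The most intense OCR of Ms4a2 was a broad intergenic region of 3854 bp, chr19:11611391-11615244, past the end of the gene, with its summit 11948 bp downstream of the start. Its fold enrichment was 83.5, 62.3, 76.0, 50.6, 28.9, 43.5 and 52.7 in library order. The 3 libraries with the prefix VD were the highest, and their percentiles, from 91.1 to 94.1, did not overlap those of the 4 EtOH libraries, of which the lowest was 84.3 and the mean 87.5 ± 2.46. Of the 13 promoter and distal values of the 9 genes with an OCR, this was the 1 whose prefixes did not overlap. What the prefixes stand for is not given in the labels, and their part in this spread was not tested. The OCR over the start, chr19:11622990-11624284, had fold enrichments of 8.42, 5.88, 7.57, 8.70, 6.41, 11.9 and 11.8, and the other promoter OCR, with its summit 1739 bp upstream, had 13.1, 10.3, 10.9, 10.6, 8.29, 13.8 and 17.5. The start itself was thus the less intense of the pair in each library, as at Cpa3.

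The promoter percentile of Ms4a2 was 67.8 ± 6.94 and the distal percentile 89.7 ± 3.35, with no overlap between the libraries' values. The promoter was lower each time, by a mean difference of -21.9 ± 5.81 points (exact sign-flip permutation test on 7 libraries, p = 0.0156, adjusted p = 0.0183 over all genes). A group of 5 further distal OCRs in all libraries lay between 10855 and 23789 bp upstream of the start, 3 in introns of the neighbouring gene Ms4a3, 1 intergenic and 1 over coding sequence of Oosp2. Their mean percentiles ran from 37.1 to 77.5. The remaining 3 OCRs in all libraries were counted to other genes' starts, those of Ms4a6d, Gm24599 and Ms4a3, at 72.8, 63.6 and 34.4. Which of these genes an OCR acts on cannot be told from peak lists.

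The OCR of Fcer1a in all 7 libraries, chr1:173237055-173237482, lay in intergenic sequence 10020 bp upstream of the start. Its fold enrichment was 4.40, 4.41, 4.73, 6.09, 5.16, 4.95 and 7.57 in library order, with between 23 and 93 reads at the summit. At a percentile of 40.5 ± 8.42 it was under the median peak in 6 of 7 libraries, the exception being HPC7-8 at 54.5. Over the 376270 bp that run from this OCR through the gene and beyond, chr1:172860785-173237054, no library listed a peak. Those bases also hold Apcs and 5 olfactory receptor genes. With no promoter OCR in any library, the sign of a promoter minus distal difference is fixed at Fcer1a, and no test is given. The gamma subunit gene Fcer1g, which serves other Fc receptors too, had a promoter OCR in all 7 libraries at 85.4 ± 2.30.

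Hdc (ENSMUSG00000027360, chr2:126593667-126619299, minus strand) encodes histidine decarboxylase, which makes histamine. It had 10 OCRs, 5 of them in all 7 libraries and 3 of these counted to its promoters. The OCR over the protein-coding start, chr2:126618424-126619575, had fold enrichments of 14.4, 11.6, 14.1, 14.6, 7.98, 11.4 and 15.9 in library order, and a percentile of 69.5 ± 5.75. The most intense promoter OCR, chr2:126598113-126599668, lay inside the gene, 19441 bp downstream of that start, with fold enrichments of 28.1, 23.3, 23.9, 30.3, 19.4, 27.1 and 34.4 and a percentile of 82.3 ± 2.71. It covers the annotated start of Hdc-202, a processed transcript with no protein, and is a promoter OCR only through that annotation. The remaining one, chr2:126609561-126610120, had a percentile of 73.3 ± 6.64 and also lay in an intron, within 3 kb of the non-coding start Hdc-203.

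The only distal OCR of Hdc in all libraries was over coding sequence of the gene, 24695 bp downstream, at 43.1 ± 4.93. The promoter exceeded the distal percentile in every one of 7 libraries, by 39.2 ± 4.76 points (exact sign-flip permutation test on 7 libraries, p = 0.0156, adjusted p = 0.0183 over all genes). This order turns with the annotation. With protein-coding starts alone the intron OCRs of Hdc and 1 in an intron of Gabpb1 become distal, and the difference is -13.4 points. It was 9.02 with promoters of 1 kb and 24.5 with flanks of 100 kb. An OCR of like intensity, at 82.5 ± 2.82, lay 17423 bp upstream in an intron of Gabpb1. Its summit was 1414 bp from the start of the gene Gm23753, so it was set apart and not counted as distal.

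Mitf (ENSMUSG00000035158, chr6:97807052-98021349, plus strand) encodes the transcription factor that mast cells and melanocytes need, and is transcribed from several starts. It had the OCR with the highest mean fold enrichment of all 9 genes, chr6:97805796-97807835, over its most upstream start. The fold enrichment there was 75.2, 66.1, 89.6, 93.6, 49.7, 67.4 and 88.7 in library order, a mean of 75.8 ± 15.9, and the percentile was 92.9 ± 1.32. The form of the factor known from melanocytes is made from the most downstream starts. These and the other later starts were not open in this way. Near the start at 97929799 an OCR was found in 2 libraries, at a percentile of 0.950 ± 1.64. Within 3 kb of the start at 97940918, and of those between 97991792 and 97991921, no library listed an OCR.

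Inside the Mitf gene, 5 distal OCRs in all 7 libraries lay 22163, 70157, 76768, 90375 and 188905 bp downstream of the first start, all in introns. The most intense of these, chr6:97883509-97884049, was at 71.4 ± 3.56, and the others between 31.7 and 53.5. A further intron OCR, chr6:97887701-97888811, lay near the start of the non-coding gene Gm15531 and was more intense, with fold enrichments between 18.5 in HPC7-6 and 33.4 in HPC7-5 and a percentile of 82.3 ± 2.70. At Mitf too the promoter percentile was the higher one in each library, by 21.5 ± 2.99 points (exact sign-flip permutation test on 7 libraries, p = 0.0156, adjusted p = 0.0183 over all genes). The difference was 10.7 with promoters of 1 kb, and the same with protein-coding starts alone, in both cases because the OCR near Gm15531 then counts as distal. With 7.66 OCRs per 100 kb the window of Mitf, the longest of the set, was less dense than the median gene.

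**Figure D2:**
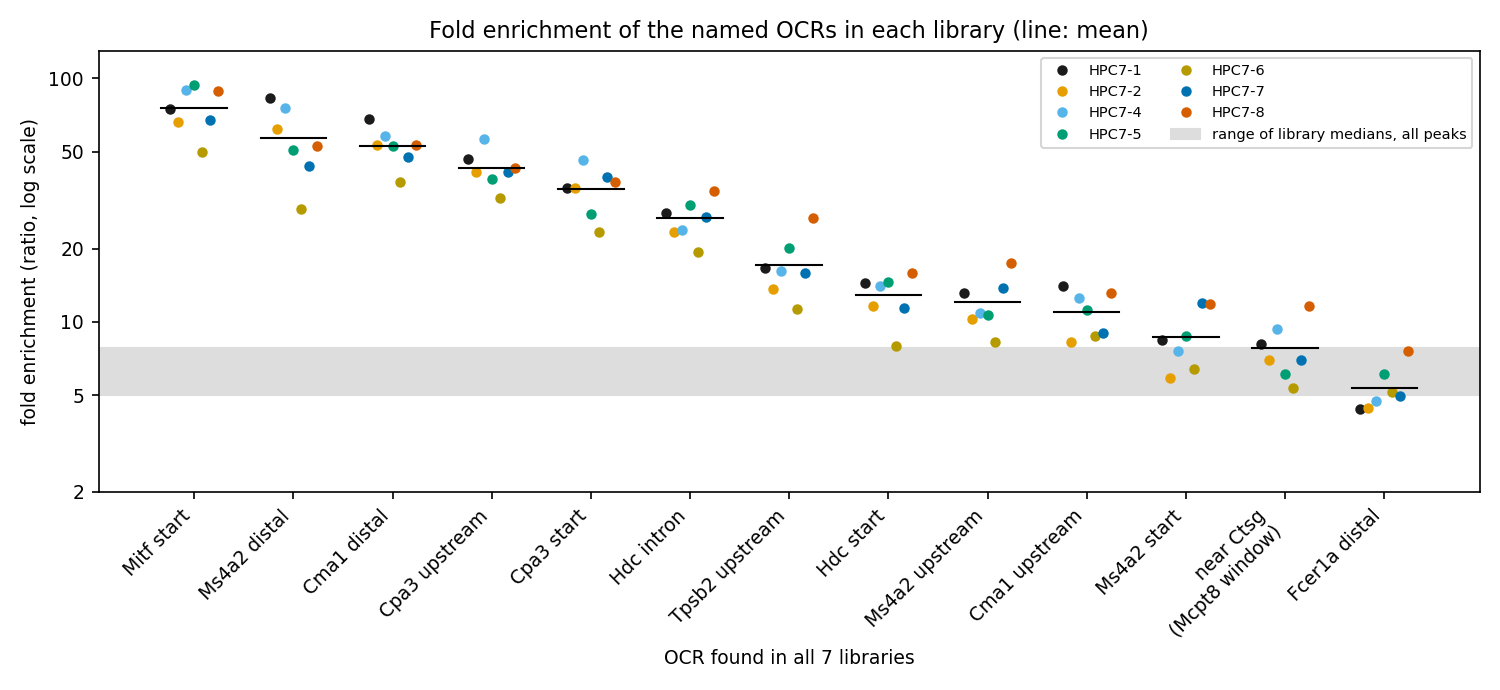
Points are the fold enrichment (ratio, log axis) of 13 named OCRs in each of the 7 libraries, lines are means, and the grey band is the range of the libraries' median fold enrichment over all their peaks. The start of Mitf has a mean of 75.8, the distal OCRs of Ms4a2 and Cma1 have means of 56.8 and 53.0, and the points of the Fcer1a OCR lie in or under the band.

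Over the set, the promoter percentile fell in the order Mitf, Cpa3, Hdc, Tpsb2, Ms4a2 and Cma1. Mitf was above Cpa3 by 5.49 ± 1.74 points, Cpa3 above Hdc by 5.15 ± 2.36, Hdc above Tpsb2 by 7.08 ± 2.44 and Tpsb2 above Ms4a2 by 7.44 ± 3.86, each with that sign in 7 of 7 libraries. The order was set by these same values, so the differences are a description and no p is given. With promoters of 1 kb Tpsb2 falls below Ms4a2 and the difference between Cpa3 and Hdc is 2.92. With protein-coding starts Hdc falls below Tpsb2 and the difference between Cpa3 and Hdc is 17.98. Ms4a2 and Cma1 did not differ beyond the spread between libraries, with a difference of 2.21 ± 5.43 points, with the higher value in Ms4a2 in 3 of 7. The libraries' values of Mitf were 90.7 or more and did not overlap the promoter values of the other 8 genes. Only Cpa3, Hdc and Mitf had a promoter OCR among the most intense 25% in every library, 3 of 9 beside 50.6% of all protein-coding genes. Hdc is counted here through the non-coding start Hdc-202. The OCR over its protein-coding start had a lowest percentile of 59.4. The median promoter percentile of the 9 genes was 67.8, beside 81.3 over all protein-coding genes.

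The distal OCRs stood in another order. Ms4a2 and Cma1 led with 89.7 and 89.5, then came Cpa3, Tpsb2 and Mitf between 71.4 and 73.7, and Hdc and Fcer1a were at 43.1 and 40.5. A distal OCR among the most intense 25% in every library was found at 2 of 9 genes, Cma1 and Ms4a2, beside 27.8% of all genes. The median distal percentile was 71.4, beside 63.2 over all protein-coding genes. Mcpt8 and Mcpt4 have neither kind of OCR. With promoters of 1 kb or protein-coding starts alone the only OCR of Mcpt8 becomes distal. Then 8 genes could be compared, though the sign at Mcpt8 is fixed since it has no promoter OCR. With the settings used here 7 genes could be compared. The promoter exceeded the distal percentile at 4 of these 7, Cpa3, Tpsb2, Hdc and Mitf. Of all 18766 genes with either kind of OCR, 56.7% had this order with an adjusted p under 0.05 (exact sign-flip permutation test), a share near theirs. The reverse held at Cma1 and Ms4a2, and at Fcer1a through its lack of a promoter OCR, 3 of 7. Of all these genes 31.8% had the reverse order by the same threshold. These counts depend on the settings. The order turned at Cpa3 and Tpsb2 with promoters of 1 kb and with flanks of 100 kb. It also turned at Hdc with protein-coding starts alone and at Cma1 with flanks of 10 kb. Genes that lack one kind, whose sign is fixed by that, are counted in both background shares. A gene with several OCRs of a class is represented by the highest of them, and their number differs between genes and classes.

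**Figure D3:**
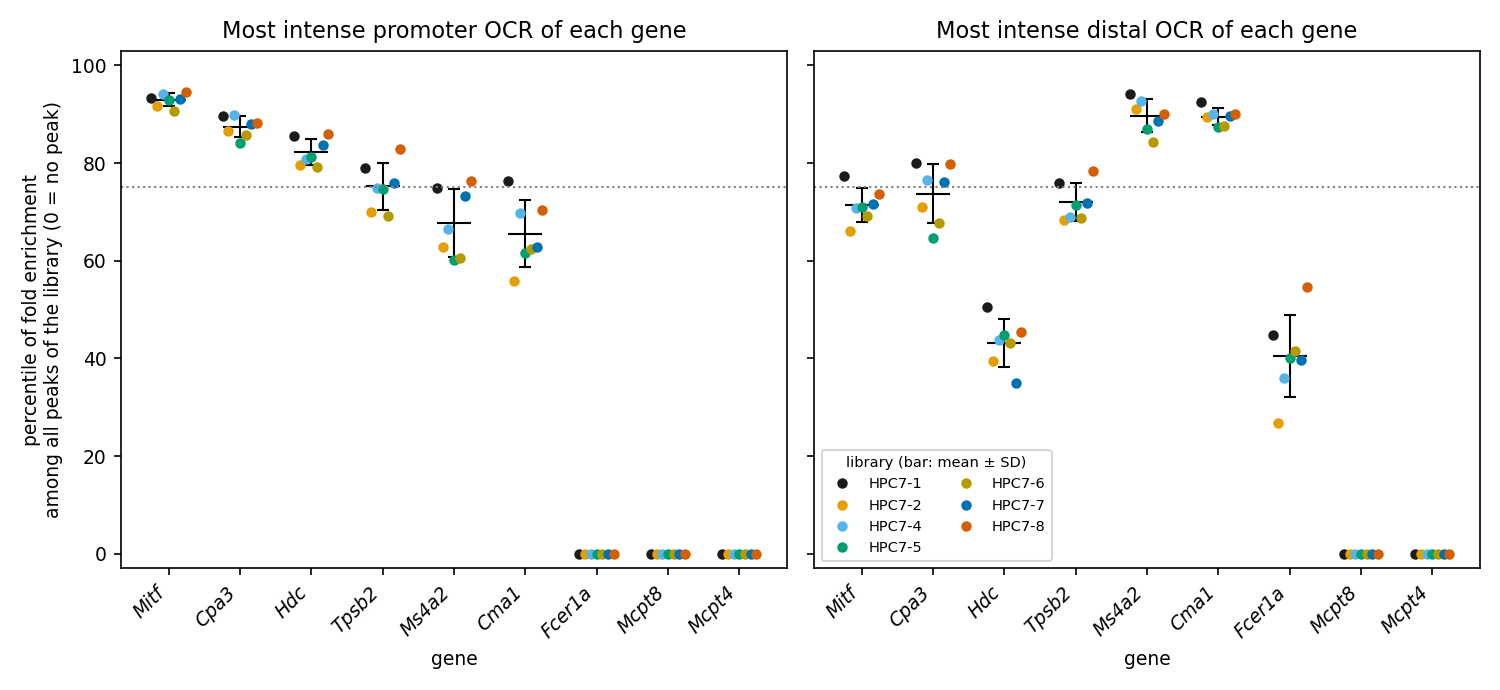
Points are the percentile of the most intense promoter OCR (left) and distal OCR (right) of each gene among all peaks of each library, with 0 for no peak, bars are mean ± SD over 7 libraries, and the dotted line is the 75th percentile. Mitf is highest on the left at 92.9, Ms4a2 and Cma1 are highest on the right at 89.7 and 89.5, and Mcpt8 and Mcpt4 are at 0 on both.

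The letters at the OCRs were counted in the 201 bases around each summit. GATA letters were in 15 of the 41 OCRs of the 9 windows found in all libraries, or 36.6%, beside 22.6% of all 66979 such OCRs. They were in 5 of the 10 OCRs at promoters of the 9 genes, and 15.7% of all OCRs within 3 kb of any gene's start have them. These sets are not alike, since the 10 leave out 9 OCRs at promoters of other genes. Of those 9, the OCRs near the starts of Mir7007, Cpb1 and Gm23753 had a match and the rest had none. GATA letters were in 7 of the 22 distal OCRs, where 27.1% of all distal OCRs have them. Cpa3 accounts for 8 of the 15, with a match in 8 of its 9 OCRs. Over the OCRs of the other genes the share was 7 of 32, or 21.9%, close to that of all such OCRs, and none of the 8 OCRs of Cma1, Tpsb2 and Mcpt8 had a match. RUNX letters were in 26.8%, beside 27.0% of all, and ETS letters in 19.5%, beside 17.3%. The M-box was in 3 of 41 OCRs, or 7.32%, beside 15.2%, 1 each at Cpa3, Cma1 and Mitf. The E-box CACGTG was in 0 of 41, beside 3.96%. CEBP letters were in 12.2%, beside 7.04%, and AP-1 letters in 9.76%, beside 11.1%.

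The starts of the set differ in CpG content. In a short window around each start, most of it upstream, the ratio of observed to expected CpG was 0.760 at Mitf and between 0 and 0.213 at the other 8 genes. A ratio under 0.5, as at these 8, was found at 47.4% of 21853 protein-coding genes with a value. Of the genes under 0.5, 23.5% had an OCR over a protein-coding start in all 7 libraries, and 36.0% had a promoter OCR in all 7. Among the 8 CpG-poor genes of the set these numbers were 3 and 5. At or above 0.5 the shares were 78.1% and 83.3%, and Mitf had both.

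Further genes listed for mast cells were counted as well. Whether their OCRs are particular to mast cells was not tested, and Kit, Gata2, Tal1 and Runx1 are also on the progenitor list below. Of 46 further genes, 35 had a promoter OCR in all 7 libraries, 4 in some and 7 in none, where 60.9% of all protein-coding genes have one in all 7. An OCR over a protein-coding start in all 7 was found at 32 of the 46, beside 52% of all protein-coding genes. Enpp3 and Tph1 had a promoter OCR in 6 libraries, and none over a protein-coding start. Among the proteases 1 of 8 had a promoter OCR in all 7, Cma2, at a percentile of 32.0 ± 15.4. Tpsab1 had one in 4 libraries and Tpsg1 in 3, and Mcpt1, Mcpt2, Mcpt9, Prss34 and Gzmb had none. All 9 genes listed for signalling at the IgE receptor had one, led by the kinase Fyn at 97.9 ± 0.558 and the adaptor Lat at 97.6 ± 0.619. Of 8 receptor genes 6 had one, led by the interleukin-3 receptor gene Il3ra at 96.7 ± 0.583 and Kit at 96.0 ± 1.35, and only Mrgprb2, a receptor of connective tissue mast cells, had none. Of 11 genes for mediators and their synthesis 10 had one, led by the heparin-forming enzyme Ndst2 at 96.9 ± 0.636 and the granule proteoglycan Srgn at 90.8 ± 1.55. Of 10 transcription factor genes 9 had one, led by Runx1 at 98.7 ± 0.275 and Stat5a at 97.9 ± 0.716, and the exception was Tfec, a relative of Mitf, with none.

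Genes of other blood lineages were counted in the same way. All 8 progenitor genes had a promoter OCR in all 7 libraries, led by Lyl1 at 99.9 ± 0.0699 and Runx1, which is also on the list above with Kit, Gata2 and Tal1. Megakaryocyte genes had one in 8 of 10, led by Itga2b at 97.7 ± 0.515 and by Pf4 and Ppbp, which share an OCR, at 96.4 ± 0.574. Neutrophil genes had one in 4 of 12, led by Prtn3 at 90.9 ± 1.72 and Mpo at 82.5 ± 3.07, while Ltf, S100a8, S100a9, Mmp8 and Chil3 had none. Lymphoid genes had one in 6 of 12, led by Cd3d at 94.1 ± 1.29 and Lck at 84.5 ± 2.54, while Cd79a, Ms4a1, Pax5 and Ebf1 had none. An OCR over a protein-coding start in all 7 libraries was found at 8 of 8 progenitor, 6 of 10 megakaryocyte, 2 of 12 neutrophil and 4 of 12 lymphoid genes. The promoter OCR of Ctsg, on the neutrophil list, is the one outside its gene body described above. It is counted there through the start Ctsg-202 and becomes distal with protein-coding starts alone. The 9 mast cell and basophil genes, with a promoter OCR at 6 of 9, lay between these lists, and the lists were not tested against each other.

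**Figure D4:**
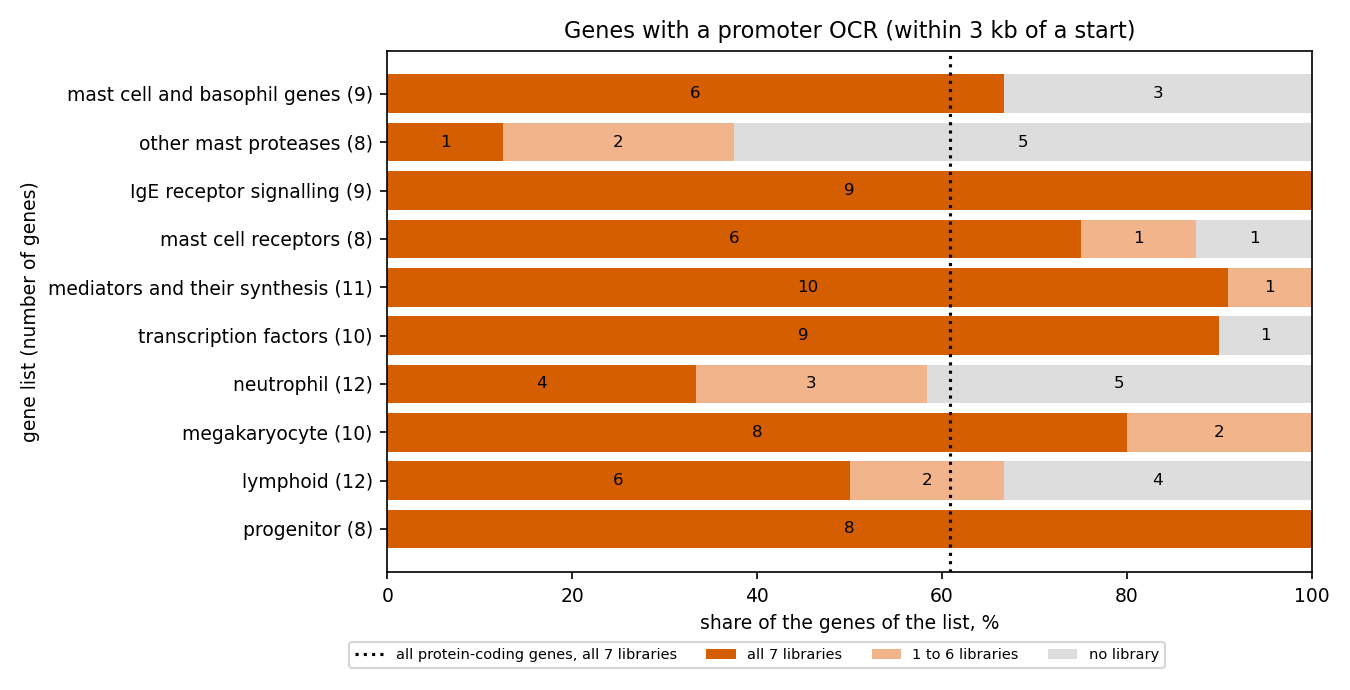
Bars divide each gene list by the number of libraries in which its genes have a promoter OCR, with the number of genes printed in each part, and the dotted line is the share of all protein-coding genes with one in all 7 libraries, 60.9%. All 9 IgE receptor signalling genes and all 8 progenitor genes have a promoter OCR in all 7 libraries, and 1 of 8 further mast cell proteases does.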

How the data were processed

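Peak lists of 7 HPC7 ATAC-seq libraries were used. Before deposit the authors trimmed the reads, mapped these with BWA-mem to mm10 and ran MACS2 on each library separately, with options and versions not given in the sources used here. The deposited columns used were each peak's fold enrichment (a ratio), the -log10 of its p and of its q, and its summit; the deposited score was not used further. Libraries were not scaled to each other, so intensities were ranked within a library.

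All fold enrichments were whole multiples (tolerance 0.05) of 1 step per library, which gave the number of summit reads and 1 background level. Reads carry no molecular identifiers, and read totals were not used. No pair of lists shared an identical row. Peaks were merged from 1 bp of overlap and assigned with GENCODE M21. Exact two-sided sign-flip permutation tests ran over libraries, with Benjamini-Hochberg adjustment. Code was checked on simulated data, with Python 3.11.15, pandas 2.3.3, scipy 1.17.1, pysam 0.24.0, bedtools 2.31.1 and blastn 2.17.0. Sequences are from GRCm38.p6.

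The 9 genes are listed by name with no measured value in the rule, but they, the other lists and the motifs were chosen with earlier results of these data known. Named are all 9 genes, their most intense promoter and distal OCRs and those in all libraries, and from each list the 2 genes with the highest promoter percentile and those without a promoter OCR if 5 or fewer. The alternatives tried were stricter peaks (-log10 q from 5 up), equal numbers of peaks, promoters of 1 kb, flanks of 10 and 100 kb, protein-coding starts, assignment by summit, 50% coverage, each library left out and the libraries of either prefix.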

Additional observations from a re-analysis of the deposited data

How the results depend on the processing

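Of 406 values under alternatives, 358 stayed close, which means the same direction and side of the threshold for a test, a move of less than the spread between libraries for a level, and a change of at most 1.5 times for a count, 17 moved, 8 reversed, 1 passed the threshold and 22 no longer did. These numbers include Fcer1a and the order of the promoters, for which no test is given, and the 1 that passed is Ms4a2 minus Cma1 with promoters of 1 kb, whose sign is fixed since Cma1 then has no promoter OCR. With promoters of 1 kb, Cma1 and Tpsb2 had no promoter OCR, the promoter minus distal difference became -2.23 at Cpa3 and -75.2 at Tpsb2, and Tpsb2 minus Ms4a2 became -58.1 and Ms4a2 minus Cma1 58.1. With a flank of 10 kb, 49 OCRs remained in the windows, 24 in all libraries, with 0.0353% of a library's peaks beside 0.0570%, and the difference at Cma1 became 52.0. With 100 kb these were 164, 81 and 0.113%, and the differences at Cpa3 and Tpsb2 became -1.003 (exact permutation p = 0.344) and -6.43. With protein-coding starts the difference at Hdc became -13.4 and Hdc minus Tpsb2 -5.76. With equal numbers of peaks 65 OCRs remained, 36 in all libraries, and the promoter percentiles fell, to 57.9 at Cma1, 60.7 at Ms4a2, 69.7 at Tpsb2, 78.2 at Hdc, 84.5 at Cpa3 and 91.3 at Mitf. The 22 were all in the libraries of 1 prefix, where 3 or 4 libraries cannot give an exact p under 0.25 or 0.125, and no direction changed there. Leaving out each library in turn gave between 76 and 81 OCRs, 41 to 45 of them in all the libraries kept, and changed no call. Where a library counted only if its peaks covered 50% of a merged OCR, 30 of 81 OCRs were in all libraries and 4 of 9 genes had a promoter OCR in all. The shares of all merged OCRs and of all protein-coding genes are given for none of these alternatives. No paired analysis was possible because all libraries form 1 group, so no libraries pair across groups, and the differences above were all taken within a library. The Fcer1a OCR had as few as 23 reads at its summit, and an OCR absent from a list may lie under its threshold.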
